A study of Mus musculus with 55 samples.

Results

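The genes described here belong by name to groups that build and run the mitotic spindle: kinesins, kinetochore and centromere proteins, spindle checkpoint proteins, Aurora and Polo-like kinases, the chromosomal passenger complex, midzone and cytokinesis factors, securin, separase and shugoshins, and Cep proteins of the centrosome and cilium. Some of them have other known roles, such as the kinesins of cargo transport. The genes were chosen by gene name among the 4113 genes in the 2 RNA-seq tables, which the authors had selected on the contrasts described here, and 69 matched. The table for Setd8-LKO + TCPOBOP (3900 genes) lists 68 of them and the table for WT + TCPOBOP (719 genes) lists 5, with 4 (Birc5, Ect2, Kif2c and Nuf2) in both tables and Plk3 in the second alone. The annotation holds 140 protein-coding genes with such names, and the other 71 were not listed and are not analysed here.

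RNA was sequenced from whole liver of male C57Bl6 mice aged 45 to 50 days. The groups were Setd8 lox/lox-AlbCre mice given TCPOBOP (Setd8-LKO + TCPOBOP, n = 4), wild type mice given TCPOBOP (WT + TCPOBOP, n = 5) and untreated wild type mice (WT untreated, n = 5). TCPOBOP, an agonist of the nuclear receptor CAR that drives liver growth, was injected once at 3 mg/kg and livers were taken 24 h later. Setd8 is the methyltransferase that places H4K20Me1, and AlbCre deletes it in albumin-expressing cells, mainly hepatocytes, so the other cell types of the liver keep the gene. RNA of Setd8-LKO mice without TCPOBOP was not analysed here. Genotype and treatment therefore change together between Setd8-LKO + TCPOBOP and WT untreated and cannot be told apart in that comparison. Sources differ on the controls, which are untreated by their labels, given corn oil by the methods, and mock-treated with DMSO by the Reporting Summary. The gene of Setd8, Kmt5a, had 563 to 761 normalized counts in WT untreated and 1313 to 1465 in libraries with the Setd8-LKO label (log2 fold change 1.08, adjusted p = 0.000452). That direction goes against the label, although whole-gene counts cannot show the deleted exon, and the directions below are those between libraries so labelled.

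In a dividing cell the kinetochore is assembled on the centromere and its outer layer grips spindle microtubules. The spindle checkpoint holds anaphase until every kinetochore is attached, after which the anaphase-promoting complex frees separase from securin and cohesin is cut. Most of these genes are silent in resting cells and are transcribed together in G2 and mitosis. In adult liver nearly all hepatocytes rest outside the cycle, and they are known for becoming polyploid by rounds of DNA replication that end without cytokinesis.

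Promoters of such genes are known to carry a cell cycle genes homology region, the CHR (TTTGAA or TTCGAA), which recruits the DREAM and MYB-MuvB complexes, often with CCAAT boxes bound by NF-Y upstream of it. Of the 69 members, 61 matched the RefSeq promoter table of build GRCm38.p6, and those without a match include Aurkb, Cep192, Incenp, Kif20a, Kifc2, Ska1 and Tpx2. The 4 promoters below belong to the members with the largest log2 fold changes among those that hold a CHR word, and they are shown because they carry the words counted further down. Each stretch runs 5′ to 3′ on the strand of the gene. All but the second stretch of Plk1 go from 130 bases before to 30 bases after the RefSeq start, and that one is 30 bases around a CHR word that the first stretch does not hold whole. Capitals mark CHR and CCAAT words on either strand.
Kif2c, chr4:117178743-117178902, minus strand: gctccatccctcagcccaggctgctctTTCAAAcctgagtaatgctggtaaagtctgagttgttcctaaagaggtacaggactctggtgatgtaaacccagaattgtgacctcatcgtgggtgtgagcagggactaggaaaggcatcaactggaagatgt
Plk1, chr7:122159305-122159464, plus strand: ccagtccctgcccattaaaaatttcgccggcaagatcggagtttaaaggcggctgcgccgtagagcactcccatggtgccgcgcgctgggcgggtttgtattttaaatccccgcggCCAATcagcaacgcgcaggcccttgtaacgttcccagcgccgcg
Plk1, chr7:122159450-122159479, plus strand: gttcccagcgccgcgTTTGAAttcggggag
Kif18b, chr11:102925095-102925254, minus strand: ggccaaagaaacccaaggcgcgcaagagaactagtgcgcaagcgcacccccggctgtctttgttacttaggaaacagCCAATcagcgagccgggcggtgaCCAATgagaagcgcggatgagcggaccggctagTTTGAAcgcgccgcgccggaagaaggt
Cenpf, chr1:189688057-189688216, minus strand: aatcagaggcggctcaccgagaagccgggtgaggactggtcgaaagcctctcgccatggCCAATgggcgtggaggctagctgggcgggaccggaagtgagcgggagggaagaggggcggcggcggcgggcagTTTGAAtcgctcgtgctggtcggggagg
Counted from the start base at 0 to the middle of the word, the CHR word lay at 33 in Plk1, at 6 in Kif18b and at 5 in Cenpf, whereas in Kif2c it lay farther upstream at -100 and is read on the opposite strand. CCAAT words stood at -12 in Plk1, at -51 and -28 in Kif18b, and at -130 and -69 in Cenpf, the farther of which is cut by the edge of the stretch. Kif2c had none in its 300 bases. The RefSeq start used for Kif2c lies inside the annotated gene, whose upstream end on the minus strand is at 117182639. That end was not searched, so the Kif2c words may not describe its main promoter.

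**Figure D1:**
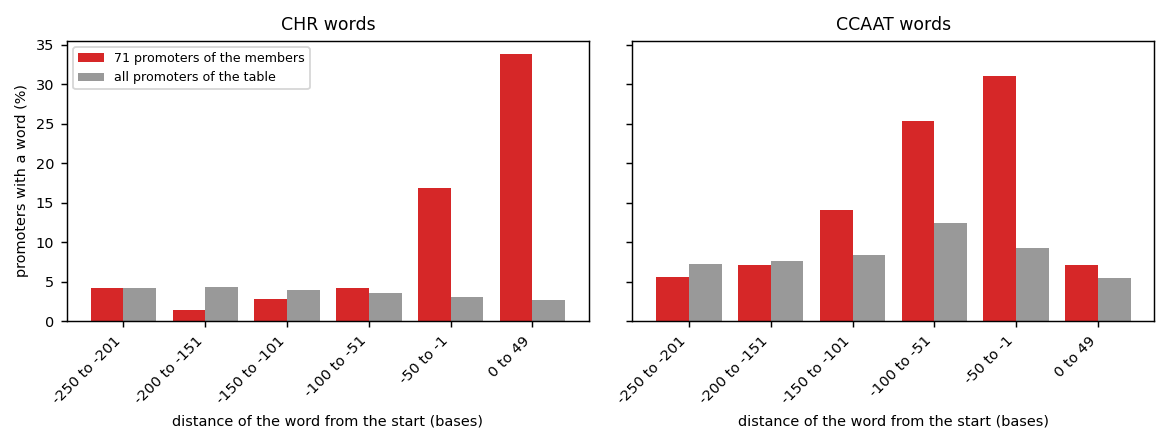
Share of promoters (%) with a CHR word (left) or a CCAAT word (right) in bins of distance from the transcript start in bases, for 71 promoters of 61 members (red) and all promoters of the table (grey). The CHR bar of the members reaches 33.8% from 0 to 49, beside 2.60% for all promoters.

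A CHR word was found in 37 of the 61 members (60.7%), beside 21.7% of all genes in the promoter table and 19.0% of the 1210 genes listed as higher in Setd8-LKO + TCPOBOP that are no members. Both strands were searched in the 300 bases from 250 before to 50 after each start. Its position was narrow. Between 50 bases before and 50 after the start, 33 members (54.1%) held it, beside 6.12% of genes. Among the members with a promoter it was present in 12 of 13 mitotic kinesins and in all 3 cytokinesis genes, and in 1 of 6 other kinesins. CCAAT was found in 35 members (57.4%, beside 41.1% of genes), most often in the 50 bases before the start (31.0% of member promoters, beside 9.22%). A CHR and a CCAAT word shared 1 promoter in 26 members (42.6%, beside 8.61%). The E2F words TTTCCCGC, TTTCGCGC, TTTGCCGC and TTTGGCGC were rare, in 5 members (8.20%, beside 2.61%). No word was found in 12 members, which says only that these letters are not in the window. These shares are descriptions of sequence and no test was run on them.

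Members with and without the CHR word overlapped in the size of the difference described next. The 37 members with it had a median log2 fold change of 3.27 between Setd8-LKO + TCPOBOP and WT untreated, and the 23 listed members without it 2.29. Of the 29 members with a log2 fold change over 3 and a promoter in the table, 23 held it. None of the 4 lower members with a promoter did. Cenpe (4.94), Kif5c (4.93), Sgo2a (4.57) and Nuf2 (4.42) were without it, whereas Kif14 (1.34), Kif11 (1.15), Kif24 (1.05) and Cep170 (1.03) held it. These medians describe genes chosen by name in a table of selected genes, and no test was run.

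The comparison of Setd8-LKO + TCPOBOP with WT untreated asks how the liver transcriptome differs when Setd8 is deleted and CAR is activated. Values are the authors' normalized counts, and a call in edgeR's quasi-likelihood test needed an adjusted p below 0.05 together with a log2 fold change of 1 or more in size. Of the 68 listed members, 62 were called higher, 5 lower (Cep85, Plk5, Kifc2, Kif1b and Pttg1) and 1 (Kif17) was not called. The table holds genes that the authors selected on this same contrast, so that 85.1% of all tested genes were called, 50.5% higher and 34.6% lower, and nothing is read from the members' count. In all 68 members the 2 groups did not overlap, as in 84.8% of the listed genes. The members' median signed log2 fold change was 2.96, beside 1.16 over the 3726 tested genes, and 33 members (48.5%) lay over 3, beside 11.5% of the tested genes. Both differences partly restate the mix of directions, since few members and 34.6% of the tested genes were lower. The 33 members over 3 stand beside 62 called higher, and the 427 tested genes over 3 beside 1881 called higher. Standard errors ran from 0.13 to 0.66 with a median of 0.30. The exact two-sided permutation test gave its smallest possible p for 4 against 5 libraries, 0.00794, in 66 of the 68 members, and 0.0159 in Kif18a and Kif17. With DESeq2's own size factors over the listed genes, 868 genes were called higher and 1493 lower in place of 1881 and 1289, and 13 members lost their call, each with a log2 fold change below 2 (Cenpa, Cenpk, Cenpn, Cenpt, Cenpw, Cep128, Cep170, Kif11, Kif13a, Kif14, Kif24, Ska2 and Spc25). Low untreated levels limit many of the fold changes, since 22 members averaged under 10 normalized counts in WT untreated.

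**Figure D2:**
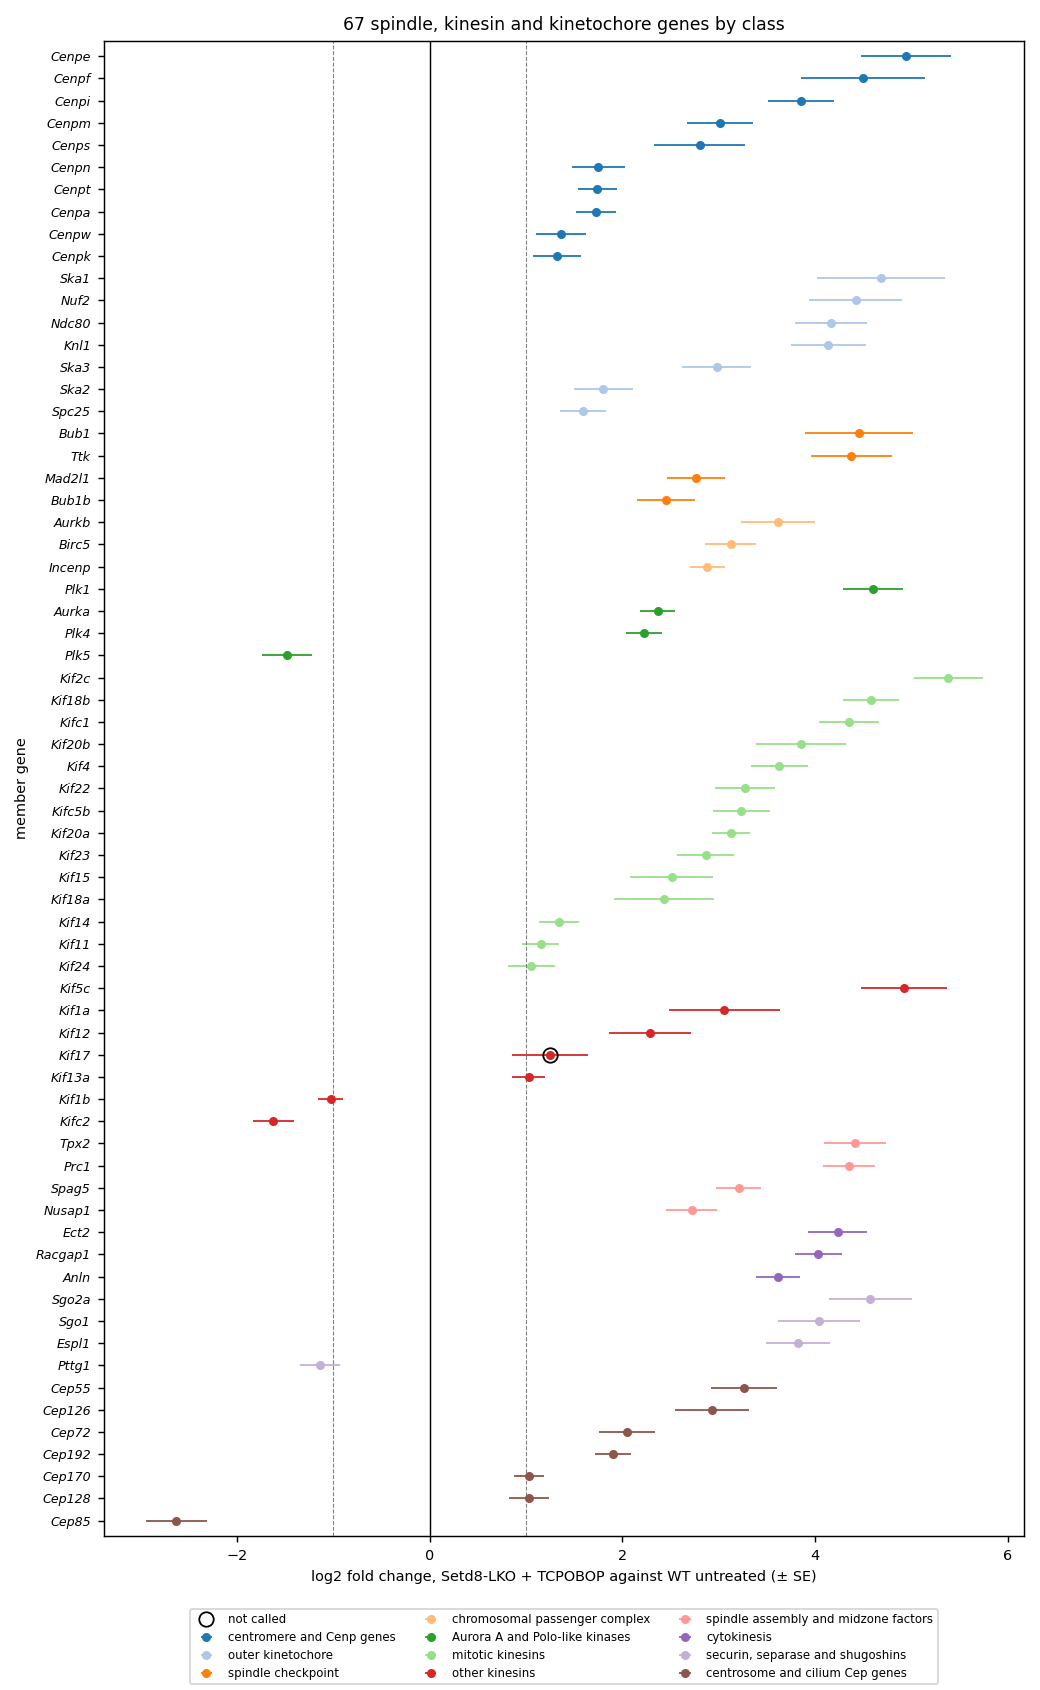
Log2 fold change with its standard error (x axis) of 67 of the 68 listed members (y axis), coloured by class and ordered within class. Dashed lines mark a log2 fold change of 1 in either direction and the ring marks Kif17, the member that was not called. Kif2c lies farthest right at 5.39 and Cep85 farthest left at -2.63.

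All 11 listed centromere and Cenp genes, which include inner kinetochore subunits and proteins of the outer corona, rose, with log2 fold changes from 1.32 to 4.94 and a median of 2.49. Cenpe, a kinesin-like motor that carries chromosomes to the metaphase plate, had 1, 4, 8, 3 and 10 normalized counts in WT untreated and 190, 163, 216 and 87 in Setd8-LKO + TCPOBOP. The highest untreated library thus stayed far below the lowest treated one, and the log2 fold change was 4.94 (SE 0.47, adjusted p = 6.56e-05). Cenpf, a large protein of the outer corona that links kinetochores to microtubules, counted 213, 166, 223 and 74 against 2, 0, 10, 5 and 19 (log2 fold change 4.50, SE 0.64). Cenpi, a subunit of the constitutive centromere network, counted 80, 86, 73 and 44 against 3, 4, 8, 5 and 3 (3.86, SE 0.34). In these 3 genes the fourth Setd8-LKO library was the lowest of its group. Cenpa, the histone variant that marks the centromere, was expressed in both groups. It had 103 ± 26.5 normalized counts (SD, n = 5) in WT untreated and 343 ± 49.7 (SD, n = 4) in Setd8-LKO + TCPOBOP (log2 fold change 1.73). Cenpk and Cenpw, also of the constitutive network, were at the low end with 1.32 and 1.36.

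The 7 listed genes of the outer kinetochore, the layer that binds microtubules, all rose, with a median log2 fold change of 4.14. Ndc80, the core of the microtubule-binding complex, had 70, 69, 77 and 74 normalized counts against 1, 4, 2, 7 and 6, which gave one of the tightest treated groups (log2 fold change 4.16, SE 0.37, adjusted p = 4.92e-05). Its partner Nuf2 had 124, 154, 144 and 91 against 1, 3, 7, 4 and 14 (4.42, SE 0.48). Ska1, of the complex that keeps kinetochores on shrinking microtubule ends, counted 38, 53, 35 and 19 against 0, 0, 4, 0 and 2 (4.69, SE 0.66). With 3 untreated libraries at 0 its fold change rests on few reads. Subunits of the same complexes differed in size. Spc25, which belongs to the Ndc80 complex, went from 71.0 ± 24.4 to 214 ± 10.3 (1.59, SE 0.23), and Ska2 from 32.8 ± 11.9 to 114 ± 6.29 (1.80, SE 0.31). Both had higher untreated counts per kilobase of exon (22.3 and 10.0) than Ndc80, Nuf2 and Ska1 (0.616, 0.915 and 0.450).

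All 4 listed spindle checkpoint genes rose. Bub1, a kinase that recruits checkpoint proteins to kinetochores, had 111, 114, 95 and 53 normalized counts against 2, 0, 5, 2 and 11 (log2 fold change 4.46, SE 0.56, adjusted p = 0.000408). Ttk, the Mps1 kinase that starts checkpoint signalling, had 101, 119, 106 and 97 against 2, 1, 8, 3 and 10 (4.38, SE 0.42). Mad2l1, the Mad2 protein that holds back Cdc20, was already present in WT untreated with 19 to 59 counts and reached 225 to 276 (2.77, SE 0.30). Its untreated libraries were the most spread of the 3 in absolute counts, yet the groups stayed apart.

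The chromosomal passenger complex corrects faulty attachments and later acts in cytokinesis. The 3 members that belong to it rose with log2 fold changes of 3.62 (Aurkb, its kinase), 3.13 (Birc5, survivin) and 2.88 (Incenp, its scaffold). Aurkb counted 144, 158, 170 and 100 against 6, 6, 12, 8 and 24. Incenp had the smallest error of the 3, with 353, 288, 312 and 249 against 41, 39, 47, 42 and 33 (SE 0.18, adjusted p = 7.08e-06). Cdca8, a further subunit that the name rule leaves out, was also listed and higher (2.40, SE 0.19).

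Among Aurora A and the Polo-like kinases, Plk1, the main kinase of mitotic entry and exit, had 264, 228, 321 and 207 normalized counts against 6, 5, 15, 11 and 13 (log2 fold change 4.60, SE 0.31, adjusted p = 1e-05). Aurka, which matures centrosomes and the spindle poles, went from 49.4 ± 4.45 to 256 ± 48.3 (2.37, SE 0.18). Plk4, the kinase that starts centriole duplication, went from 26.8 ± 3.11 to 124 ± 7.18 (2.22, SE 0.18). Plk5 stood apart: this member of the family, which lacks a working kinase domain, had 8, 5, 6 and 8 against 24, 21, 17, 15 and 19, and fell by 1.48 on the log2 scale (SE 0.26, adjusted p = 0.00431). Its counts are among the lowest of the members, and its call was lost in 1 alternative fit, given with the processing.

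The mitotic kinesins were the largest class and all 14 listed genes rose, with log2 fold changes from 1.05 to 5.39. Kif2c (MCAK), which takes microtubules apart at kinetochores, had the largest fold change of all members. It counted 148, 110, 173 and 139 against 1, 6, 2, 4 and 3 (5.39, SE 0.35, adjusted p = 8.81e-06). Kif18b, a motor on astral microtubules, had 108, 85, 105 and 108 against 2, 3, 5, 5 and 6 (4.58, SE 0.29). Kifc1, a minus-end motor that gathers spindle poles, had 269, 229, 333 and 217 against 5, 16, 17, 10 and 14 (4.35, SE 0.31). Kifc5b is a near-identical copy of Kifc1, and how reads were split between them is not given, so both values are uncertain. At the other end, Kif11 (Eg5), the motor that pushes the spindle poles apart, already had 121 to 203 counts in WT untreated and reached 275 to 415 (1.15, SE 0.19). Kif24, which acts on centrioles, had the smallest rise of the class, from 27.8 ± 5.72 to 58.0 ± 11.0 (1.05, SE 0.24), and its call was lost without Setd8-LKO replicate 1, 2 or 4 or without untreated WT replicate 1 or 2 (log2 fold change 0.95 to 1.04).

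The spindle assembly and midzone factors Tpx2, Prc1, Spag5 and Nusap1 all rose, by log2 fold changes of 4.42, 4.35, 3.21 and 2.72. Tpx2, which activates Aurora A and nucleates spindle microtubules, counted 317, 314, 385 and 314 against 5, 14, 21, 15 and 22. Prc1, which bundles microtubules of the midzone, counted 580, 487, 593 and 438 against 14, 19, 28, 35 and 32, although its exons share 100 bases or more with a neighbouring gene. The 3 cytokinesis genes lay close together. Ect2, the exchange factor that switches on RhoA for the contractile ring, had 676, 586, 633 and 558 against 20, 18, 45, 28 and 51 (4.24, SE 0.31, adjusted p = 1.47e-05). Its partner Racgap1 went from 16.6 ± 5.55 to 275 ± 23.3 (4.04, SE 0.24) and the ring scaffold Anln from 19.4 ± 3.71 to 240 ± 47.5 (3.61, SE 0.23).

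Of the 4 listed genes that guard and cut sister cohesion, 3 rose and Pttg1 was lower. Shugoshins protect centromeric cohesin, and Sgo2a counted 130, 136, 116 and 84 against 3, 1, 7, 2 and 10 (log2 fold change 4.57, SE 0.43), with Sgo1 at 4.04 (SE 0.42). Espl1, separase, the protease that cuts cohesin, counted 156, 106, 156 and 90 against 8, 6, 5, 15 and 9 (3.82, SE 0.33). Pttg1, securin, the inhibitor of separase, was lower in every Setd8-LKO library, with 151, 113, 223 and 157 against 331, 423, 335, 344 and 346 (log2 fold change -1.14, SE 0.20, adjusted p = 0.00454, exact permutation p = 0.00794). Its call was lost in 1 alternative fit, as for Plk5. Securin was thus at 178 ± 19.0 normalized counts per kilobase of exon in WT untreated and 80.5 ± 22.8 in Setd8-LKO + TCPOBOP, while separase went from 0.983 ± 0.447 to 14.5 ± 3.90 on the same scale.

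Kinesins with known roles in cargo transport rather than in mitosis formed the least uniform class, with 4 of 7 higher, 2 lower and 1 not called. Kif5c, a heavy chain of conventional kinesin best known from neurons, counted 99, 76, 40 and 90 against 5, 1, 2, 1 and 2 (log2 fold change 4.93, SE 0.44, adjusted p = 4.96e-05). Kif1a, a neuronal vesicle motor, had 37, 38, 11 and 20 against 2, 3, 5, 5 and 0 (3.06, SE 0.58), and Kif12 had 88, 76, 24 and 61 against 18, 10, 6, 19 and 10 (2.29, SE 0.43). All 3 were lowest in the third Setd8-LKO library, unlike the mitotic kinesins, most of which were lowest in the fourth. Kif1b, a motor for mitochondria and vesicles, fell from 2939 ± 241 to 1439 ± 74.3 (log2 fold change -1.03, SE 0.13), a value that became -0.98, short of the threshold, without untreated WT replicate 5. Kifc2, a minus-end transport motor, fell from 139 ± 21.1 to 44.8 ± 9.14 (-1.63, SE 0.21). Kif17, a cilium and dendrite motor, had 28, 18, 18 and 17 against 8, 8, 13, 2 and 11 (1.25, SE 0.39, adjusted p = 0.148).

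Of the 7 listed Cep genes, 6 rose. Cep55, which acts at the midbody during abscission, counted 77, 67, 67 and 68 against 7, 3, 11, 4 and 10 (log2 fold change 3.27, SE 0.34), and Cep126 counted 62, 66, 52 and 23 against 3, 8, 7, 9 and 6 (2.93, SE 0.38). Cep85 went the other way from a very different level. It had 7682, 7932, 13883, 16844 and 6018 normalized counts in WT untreated, the most of any member, and 1852, 1645, 1516 and 1740 in Setd8-LKO + TCPOBOP (log2 fold change -2.63, SE 0.32, adjusted p = 0.000315). The untreated libraries differed among themselves by more than the treated ones, and none came near the treated range.

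Per kilobase of exon, the order of the 68 members listed for Setd8-LKO + TCPOBOP changed between the groups. Plk3, which is not among them, had 326 ± 195 normalized counts per kilobase in WT untreated (SD, n = 5). In WT untreated the highest of the 68 were Cep85 (1987 ± 882 normalized counts per kilobase, SD, n = 5), Pttg1 (178 ± 19.0) and Kif1b (167 ± 13.7). Kif13a (42.0 ± 8.55) and Kifc2 (35.4 ± 5.37) came next. Pttg1 and Kif1b did not differ beyond their spread. Of these 5, Kif13a, a cargo motor, was the only one that was higher in Setd8-LKO + TCPOBOP. In Setd8-LKO + TCPOBOP the order was Cep85 (320 ± 27.1, n = 4), Kif20a (136 ± 26.1), Plk1 (116 ± 22.7), Ect2 (114 ± 9.66) and Aurka (101 ± 19.1), and the last 4 overlapped within their spread. Kif20a shares 1271 exonic bases with Cdc23 on the opposite strand, where reads may be split, so its place is uncertain. The median over the 68 listed members went from 3.31 to 23.1 per kilobase.

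**Figure D3:**
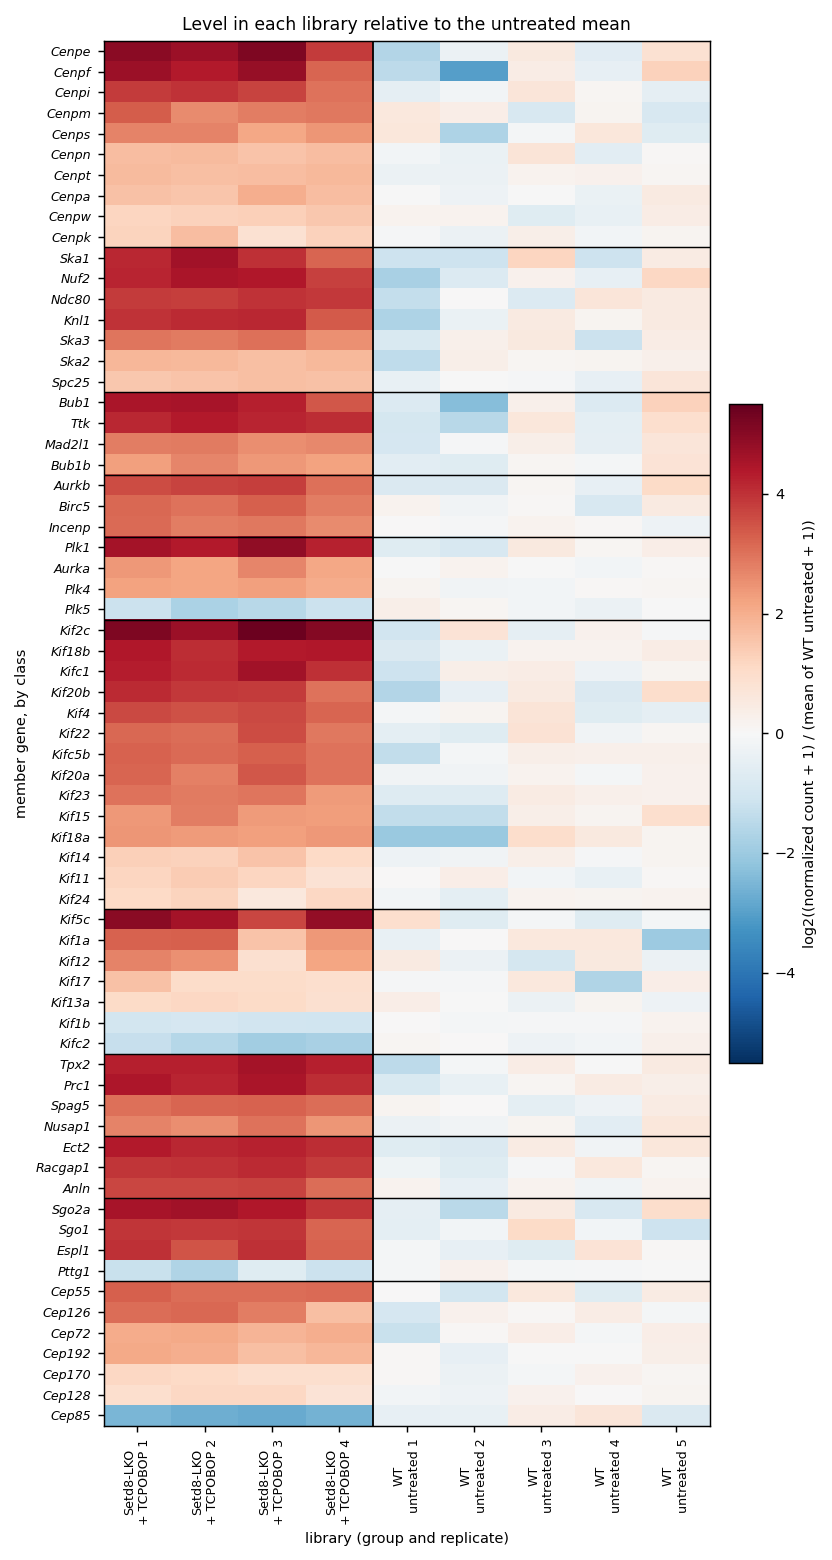
Level of 67 of the 68 listed members (rows, grouped by class) in each library (columns), as log2 of the normalized count plus 1 over the mean of WT untreated plus 1. The 4 Setd8-LKO columns are red for 62 of them and blue for Plk5, Kif1b, Kifc2, Pttg1 and Cep85.

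The libraries of a group differed in how far the module as a whole moved. As the median over members of each count divided by the untreated mean, the Setd8-LKO libraries stood at 8.91, 7.80, 7.97 and 6.56 and the untreated ones at 0.768, 0.807, 1.16, 0.921 and 1.20. Of the 63 members with higher counts, 38 were lowest in the fourth Setd8-LKO library and 24 highest in the third. The fourth library is the only Setd8-LKO library of sequencing run A, so the library and the run cannot be told apart. Within run A, which also holds 3 untreated libraries, all 68 members had a ratio of the same direction as in the whole comparison, with a median log2 ratio of 2.60. Within run B all 67 members with an untreated count did, with a median of 3.30, and Ska1 had none.

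Genes around the module that were taken from a list of other spindle and kinetochore factors gave 26 of 41 listed, all 26 of them called higher (median log2 fold change 2.94). Of 14 cyclins and kinases of G2 and mitosis, 11 were listed and called higher. Cdk1, the kinase that drives mitotic entry, counted 459, 431, 538 and 358 against 14, 23, 56, 29 and 44 (3.75, SE 0.35), and its partner Ccnb1, cyclin B1, counted 447, 313, 559 and 410 against 2, 6, 9, 6 and 14 (5.80, SE 0.38). Of 19 genes of the anaphase-promoting complex and its regulators, 4 were listed and 3 were called higher (Cdc20, Ube2c and Cdc23). Cdc20, its mitotic activator, counted 507, 442, 754 and 524 against 10, 14, 16, 10 and 29 (5.13, SE 0.33), while Fbxo5, its interphase inhibitor, was not called (1.21, adjusted p = 0.0779). The core subunits of that complex other than Cdc23 were not listed. Cdc23 shares exonic bases with Kif20a.

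Of 24 factors upstream of the module, 6 were listed. Foxm1, the forkhead activator of G2 and mitotic genes, counted 146, 186, 170 and 116 against 5, 5, 17, 14 and 10 (log2 fold change 3.86, SE 0.35). E2f2, E2f7 and Rbl1 were also higher and Tfdp2, a partner of E2F proteins, was lower (-1.28, SE 0.31). Mybl2 was not listed. Cdkn1a, the inhibitor p21 that a p53 response switches on, rose beside the mitotic genes, with 1961, 1614, 2193 and 1221 against 17, 35, 78, 50 and 103 (4.94, SE 0.45, adjusted p = 5.28e-05). All 6 listed proliferation markers of 8 were higher. Mki67 counted 604, 707, 495 and 189 against 19, 13, 26, 16 and 64 (4.17, SE 0.52), with its lowest treated value in the fourth library, as for most members, and Top2a had a log2 fold change of 4.25.

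Markers of liver cell types moved between the same groups. In bulk tissue fewer cells of a type and less RNA per cell cannot be told apart. Hepatocyte markers were listed for 8 of 10 genes, of which 7 were lower and Cyp3a11, a CAR target, was higher, and their summed normalized counts were 680283 to 931855 against 1317809 to 2107200. Of 7 cholangiocyte markers 6 were listed and 5 were higher (summed 1634 to 7506 against 424 to 697), and of 8 stellate cell and fibroblast markers 4 were listed and higher (2877 to 8730 against 756 to 1725). Macrophage and monocyte markers were listed for 4 of 10, with 3 higher (697 to 1037 against 127 to 368). Lymphocyte markers were listed for 2 of 10 (10 to 15 against 23 to 66, 1 lower), neutrophil markers for 2 of 8 (71 to 121 against 6 to 100, none called), endothelial markers for 1 of 7, Vwf, which was higher (196 to 330 against 89 to 198), and erythroid markers for 1 of 6, Alas2, which was lower. No listed marker was at 0 in every library of a group. The part of these cell types in the members' differences was not tested.

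In the comparison of WT + TCPOBOP with WT untreated, where Setd8 is present, values are at hand for the 5 listed members alone, and the other 64 were not analysed here. Of these 5, 4 passed the filter on low counts and Ect2 alone was called, beside 67.6% of the tested genes of this table, which was selected in the same way. Ect2 had 177, 151, 145, 201 and 141 normalized counts against 20, 18, 45, 28 and 51 in WT untreated (log2 fold change 2.32, SE 0.31, adjusted p = 0.00358), and this call was lost under 3 alternatives given with the processing. Birc5 had 67, 47, 51, 54 and 40 against 24, 18, 22, 11 and 30, groups that did not overlap (1.30, SE 0.27, adjusted p = 0.0652, exact permutation p = 0.00794). Nuf2 had 33, 11, 15, 63 and 20 against 1, 3, 7, 4 and 14, with a wide spread (2.24, SE 0.63, adjusted p = 0.396). Kif2c had 19, 11, 12, 20 and 11 against 1, 6, 2, 4 and 3 and did not pass the filter. Plk3, a stress-responsive Polo-like kinase, had 2414, 2706, 2049, 963 and 1301 against 457, 540, 1666, 612 and 850, and the groups overlapped (1.19, SE 0.39, adjusted p = 0.935). Of the genes around the module, 4 proliferation markers (Mcm2, Mcm5, Mcm6 and Rrm2) were called higher, while Foxm1, Ccnb1, Cdc20 and Top2a had log2 fold changes of 1.74, 1.66, 1.72 and 1.50 and were not called (adjusted p from 0.113 to 0.523).

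**Figure D4:**
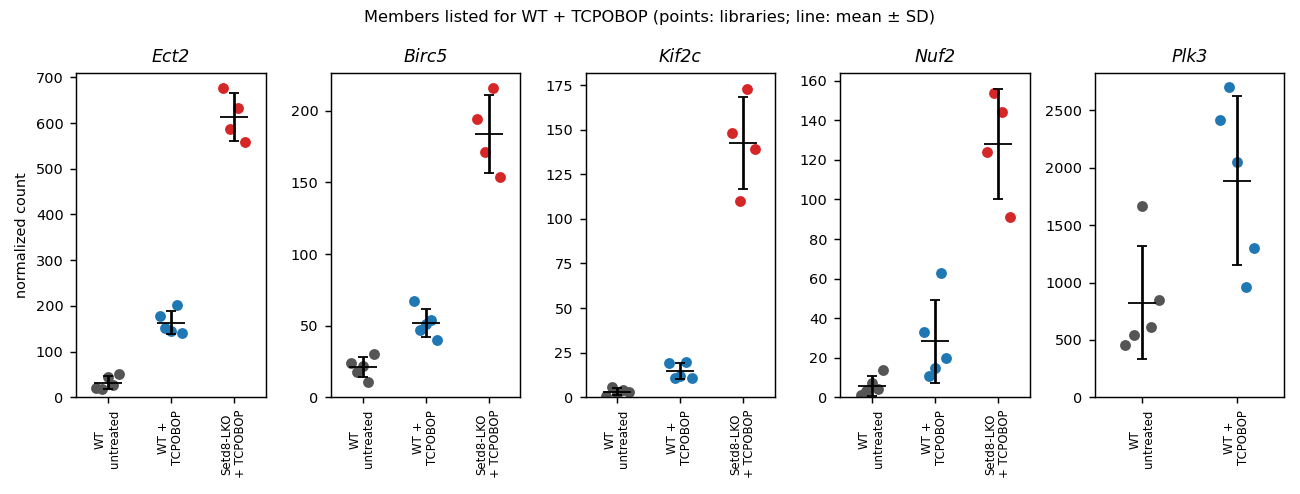
Normalized counts (y axis, from 0) of the 5 members listed for WT + TCPOBOP, with 1 point per library and lines for the mean and SD of each group (n = 5, 5 and 4). Ect2, Birc5, Kif2c and Nuf2 are higher in every Setd8-LKO + TCPOBOP library than in any WT + TCPOBOP library, while Plk3 is listed for the wild type groups alone.

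The untreated values of the 506 genes in both tables are identical, so the 3 groups could be set against each other for the 4 shared members. Between Setd8-LKO + TCPOBOP and WT + TCPOBOP, 24.9% of these 506 genes were called and 9.09% were called higher, and their median log2 fold change was -0.23. Kif2c had 110 to 173 normalized counts against 11 to 20 in WT + TCPOBOP (log2 fold change 3.31, SE 0.32, adjusted p = 5.43e-05). Ect2 had 558 to 676 against 141 to 201 (1.91, SE 0.28, adjusted p = 0.00322), and Birc5 154 to 216 against 40 to 67 (1.82, SE 0.26, adjusted p = 0.00236). Nuf2, with 91 to 154 against 11 to 63, was not called (2.18, SE 0.51, adjusted p = 0.211, exact permutation p = 0.0159). In all 4 the groups did not overlap, as in 19.0% of the 506 genes that were higher without overlap. Both comparisons with WT untreated use the same 5 control libraries.

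Chromatin was profiled in WT untreated and Setd8-LKO + TCPOBOP liver nuclei, with 1 list of peaks or islands per condition used here, so the shares below have no replicate error and carry no test. A member counted as marked when a peak lay within 1000 bp of one of its annotated transcript starts, or, for the broad Lamin A/C and H4K20Me3 islands, when a start lay inside. Active promoter marks were frequent at the members in WT untreated. H3K27ac, the acetylation of active promoters and enhancers, was present at 53 members in WT untreated (76.8%, beside 54.4% of all protein-coding genes) and at 60 in Setd8-LKO + TCPOBOP (87.0%, beside 58.8%). Open chromatin by ATAC-seq was present at 58 members in WT untreated (84.1%, beside 43.1%) and at 49 in Setd8-LKO + TCPOBOP (71.0%, beside 37.0%). The lists held 27307 and 23386 ATAC peaks. Among listed protein-coding genes that are no members, H3K27ac in WT untreated was at 66.7% of those called higher and 80.3% of those called lower. In Setd8-LKO + TCPOBOP it was at 74.3% and 77.8%. Open chromatin was at 43.3% and 66.8% of these genes in WT untreated, and at 38.7% and 56.0% in Setd8-LKO + TCPOBOP.

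H3K27ac was listed in both conditions at 50 members (72.5%, beside 53.5% of protein-coding genes). It was listed in Setd8-LKO + TCPOBOP alone at 10 (14.5%, beside 5.27%), which were Plk1, Cep55, Cenpf, Kif14, Kif18b, Kif17, Kif1a, Ska1, Espl1 and Bub1, and in WT untreated alone at 3 (4.35%, beside 0.948%), which were Cenpi, Kif4 and Nuf2. The fold enrichment of the peaks that were new at Plk1, Kif18b and Cenpf, whose promoters are printed above, was 7.50, 13.9 and 12.8, below the members' median of 22.5. ATAC peaks were listed in both conditions at 49 members (71.0%, beside 35.9% of protein-coding genes) and in WT untreated alone at 9 (13.04%, beside 7.22%). Among the latter were Kif18b, Cenpe and Sgo2a, which rose in RNA as most members did. All 5 lower members had an H3K27ac peak in both conditions. Of these 5, Cep85, Kifc2 and Pttg1 had an ATAC peak in both, Kif1b in WT untreated alone and Plk5 in neither.

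**Figure D5:**
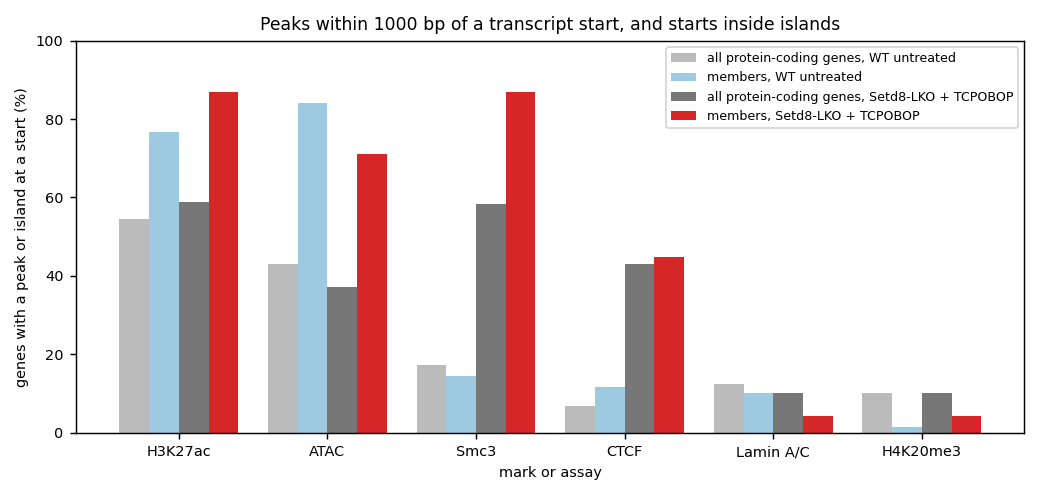
Share of genes (%, y axis) with a peak within 1000 bp of a transcript start, or with a start inside an island for Lamin A/C and H4K20Me3, by mark (x axis). Grey bars are all protein-coding genes, blue and red bars the 69 members in WT untreated and Setd8-LKO + TCPOBOP. Smc3 at the members goes from 14.5% to 87.0%, and over all genes from 17.2% to 58.2%.

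Smc3, a ring subunit of cohesin, was listed at 10 members in WT untreated (14.5%, beside 17.2% of protein-coding genes) and at 60 in Setd8-LKO + TCPOBOP (87.0%, beside 58.2%), with 50 members gaining a peak and none losing one. Among listed genes that are no members, Smc3 in Setd8-LKO + TCPOBOP was at 73.6% of those called higher and 61.5% of those called lower. The number of Smc3 peaks in the lists also went from 13045 to 21615. At the 10 members with a peak in both, the fold enrichment was higher in Setd8-LKO + TCPOBOP, with a median log2 ratio of 2.01. The same held at 3470 of the 3570 protein-coding genes with a peak in both, where the median was 2.71. CTCF, the factor that anchors chromatin loops, went from 8 members (11.6%, beside 6.81%) to 31 (44.9%, beside 43.1%), while its list grew from 5838 to 20905 peaks. The members' share in the second list is close to that of all genes. Among listed genes that are no members, it was 54.2% of those called higher and 46.5% of those called lower.

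Few members lay in heterochromatin. Lamin A/C islands, which mark contact with the nuclear lamina, held starts of 7 members in WT untreated (10.1%, beside 12.4%) and of 3 in Setd8-LKO + TCPOBOP (4.35%, beside 10.2%). Cep128 and Mad2l1 were among those inside in both, and Cenpe, Kif18a, Kif5c and Nuf2 in WT untreated alone (5.80%, beside 2.62% of protein-coding genes). All 4 of the latter were called higher in RNA, as were 62 of the 68 listed members, so nothing is read from that. H4K20Me3 islands held Cep126 in WT untreated, and Kifc5b, Ska1 and Mad2l1 in Setd8-LKO + TCPOBOP, beside 10.2% and 10.1% of protein-coding genes.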

How the data were processed

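Raw counts and normalized values of 14 RNA-seq libraries (4, 5 and 5), and 12 lists of peaks or islands, were used. Per the labels and methods, the authors used PRINSEQ as read filter, HISAT2 for alignment to mm10, and metaseqR to make the deposited raw counts per gene and their normalized counts. The latter equal raw counts times 1 factor per library (0.752 to 0.855 for Setd8-LKO + TCPOBOP, 1.03 to 1.25 for WT untreated, 1.09 to 1.39 for WT + TCPOBOP). Peaks were called by the authors with MACS2 2.2.7.1, whose deposited fold enrichment is a ratio and whose significance is a −log10 p, and islands with SICER2, whose deposited score was used, after Trimmomatic 0.39 and a reduction of reads to the smallest sample. Strandedness is not given in the sources used here. The tables list only genes selected by the authors on the same contrasts, so column sums are not depth, which limits precision most for members with few counts. Columns of the authors' p-values, FDR, fold changes and group means were not used, nor were 114 columns of transformed values per library.

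The main test was edgeR's quasi-likelihood F test (version 4.0.16, R 4.3.3) on raw counts after filterByExpr at a minimum of 10 counts, with effective library sizes from the authors' factors and Benjamini-Hochberg adjustment over the 55450 annotated genes of GENCODE M21, genes outside a table counting as p = 1. Standard errors were taken as the absolute log2 fold change over the square root of F. Single genes were also put to exact two-sided permutation tests of log2(normalized count + 1). The 2 tables had been assumed to be normalized separately. Their untreated values proved identical, and 1 fit of the 3 groups over shared genes was added after the data were seen. On simulated counts of the Setd8-LKO + TCPOBOP comparison (3670 genes), 75.3% of genes changed by 2 on the log2 scale and 96% of those changed by 3 were found, and for WT + TCPOBOP (677 genes) 73.7% and 93%. DESeq2 1.42.0 served the alternatives, and Python 3.11.15, pandas 2.3.3 and scipy 1.17.1 the rest.

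The members, gene lists and promoter words were chosen with earlier results of these data known. Named are the 3 members of each class with the largest absolute log2 fold change, every member that was lower, not called or listed for WT + TCPOBOP, and Cdk1, Ccnb1, Cdc20, Foxm1, Mybl2, Mki67, Top2a and Cdkn1a. Other genes (among them Cenpa, Cenpk, Cenpn, Cenpt, Cenpw, Cep128, Cep170, Spc25, Ska2, Kif11, Kif14, Kif18a, Kif24, Kif13a, Kif20a, Kifc5b, Nusap1) were named after their values were seen. The labels do not state that libraries come from separate animals throughout, and p-values measure the spread between libraries. The paper's methods give 4 and 5 biological replicates for RNA-seq, a term they use for mice in the imaging assays. Exons of 9 members share at least 100 bases with another gene (Kif20a, Sgo2a, Prc1, Kif4, Nusap1, Ska2, Cenpk, Kifc2 and Plk1), where reads may be split. Results for 1 member are not reported here by name.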

Additional observations from a re-analysis of the deposited data

Results flagged for a closer look

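Of 82 groups of 4 or 5 libraries of the named members, 9 had a library far from the others by Dixon's test at the 95% level, and chance flags about 1 in 20. In Setd8-LKO + TCPOBOP, Cep55 had 77 normalized counts in replicate 1 (67 to 68 in the others) and Kif17 had 28 in replicate 1 (17 to 18). Kif18b had 85 in replicate 2 (105 to 108) and Tpx2 had 385 in replicate 3 (314 to 317). Replicate 4, the library of run A, was low for Anln with 169 (261 to 269) and for Sgo1 with 39 (64 to 66). In WT untreated, Kif5c had 5 in replicate 1 (1 to 2), Pttg1 had 423 in replicate 2 (331 to 346) and Sgo1 had 8 in replicate 3 (1 to 3). None of these values lies within the range of the other group.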

How the results depend on the processing

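In the comparison of Setd8-LKO + TCPOBOP with WT untreated, none of the 38 named members tested changed direction in the 16 alternatives run. The count of changed members, 67, was 67 with TMM factors, without the filter and with DESeq2 on the authors' factors, 66 with run as a term, 68 with adjustment over the table alone, 54 with DESeq2's own size factors, and 58 without the 9 members that overlap another gene. DESeq2's own size factors over the listed genes moved the median of the tested genes by -0.82 on the log2 scale and the split of all calls from 1881 higher and 1289 lower to 868 and 1493. Leaving out single libraries gave 64 to 67 changed members, and Cep128 and Kif24 each lost their call without untreated WT replicate 1 or 2 or several Setd8-LKO libraries (0.97 to 0.99 and 0.95 to 1.04 on the log2 scale). Cep170 lost it without Setd8-LKO replicate 1 (0.99) or untreated WT replicate 2 (0.96), Kif13a without Setd8-LKO replicate 2 (0.99) or untreated WT replicate 3 or 5 (0.96), and Kif1b without untreated WT replicate 5 (-0.98). The replicate numbers do not pair the libraries (correlations of deviations from -0.155 to 0.0656 over 4 pairs and from -0.434 to 0.114 over 5 pairs, and 0 of 9 treated libraries correlated best with their own number). With the replicate block 56 members were called, 54 higher and 2 lower, and Plk5, Kif1b and Pttg1 were among those not called.

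For WT + TCPOBOP against WT untreated the 459 changed genes became 261 with TMM factors, 301 with DESeq2's own size factors and 159 with the replicate block, and 335 to 439 when single libraries were left out. The 1 changed member, Ect2, became 0 under each of those 3, with log2 fold changes of 1.36 (adjusted p = 0.225), 1.15 (0.0590) and 2.42 (0.0614). It became 2 with DESeq2 on the authors' factors and without the filter, and 4 with adjustment over the table alone. Leaving out single libraries gave 1 to 2, the latter without untreated WT replicate 2, where Kif2c passed the filter and was called (2.37, adjusted p = 0.0331). TMM and DESeq2's factors moved the median of the tested genes by -0.97 and -1.16, and under the latter Plk3 turned to -0.0163. The cause was not tested. Shares of members with peaks or promoter words moved by less than 1.5 times with other windows, a stricter peak threshold or TTTGAA alone. Depth limits the 22 members with under 10 untreated counts, whose fold changes carry the larger errors.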

Other observations

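Counts summed over the members hide most of the module. With all 68 listed members the sums were 12380 to 14786 normalized counts in the Setd8-LKO libraries and 11989 to 21870 in WT untreated, ranges that overlap, because Cep85, Kif1b and Kif13a hold most of the untreated counts. Without these 3 genes the sums were 10758, 9985, 11034 and 8665 against 1760, 1874, 2070, 1854 and 2365. These genes were set aside after their values were seen, and no test was run on the sums.

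Among the other spindle factors of the fixed list the largest log2 fold changes were those of Ckap2 (5.75), a microtubule-stabilising protein, and Psrc1 (5.48), and the smallest that of Sass6 (1.22), the protein of the centriole cartwheel. Hmmr, a spindle pole protein, counted 331, 298, 350 and 221 against 4, 5, 13, 10 and 20. Troap counted 63, 63, 82 and 60 against 3, 4, 3, 5 and 1.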
